A study of Mus musculus with 12 samples.

Results

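Otx2, Foxd3, Zic2, Pou3f1, Gbx2 and Lin28a are regulators linked to the formative and primed epiblast, the stages that follow naive pluripotency. Their mRNA was followed on 12 mouse gene arrays. The 6 genes were chosen by name from the biology of the epiblast, and each was read from the single probe set annotated to it. They are 6 of 19938 genes with a probe set, and 5 of them are among the 13044 genes kept for testing. A gene was kept if 1 or more arrays showed it above that array's median signal, which no array did for Pou3f1. On GRCm38.p6, Otx2 (chr14:48656781-48667644) and Zic2 (chr14:122475384-122480328) lie on chromosome 14. Foxd3 (chr4:99656299-99658671), Pou3f1 (chr4:124657646-124660655) and Lin28a (chr4:134003330-134019196) lie far apart on chromosome 4, and Gbx2 (chr1:89927962-89931176) is on chromosome 1.

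The arrays compared cells with both copies of Mbd3 (WT, Mbd3+/+), with a floxed and a deleted copy (flox/-) and with no intact copy by their labels (-/-). MBD3 is a subunit of the NuRD complex, which remodels nucleosomes and removes histone acetyl groups. Embryonic fibroblasts (MEF) were measured before doxycycline (DOX) as WT, flox/- and -/- cells. DOX switched on the OSKM reprogramming factors (Oct4, Sox2, Klf4 and Myc), and WT cells were taken on days 4, 8 and 11 and flox/- cells on days 4 and 8. The pluripotent group held WT and flox/- induced pluripotent stem cells (iPSC) and WT and -/- embryonic stem cells (ESC), of which the WT line is V6.5. The WT and flox/- MEF carried the DOX-inducible OSKM transgene, which the labels of the -/- MEF and of both ESC do not name. Per the labels, every culture was kept in medium with LIF and the inhibitors called 2i on irradiated feeder fibroblasts. That medium is one made to hold cells in the naive state, and feeder RNA may be in every sample. Each combination of genotype and stage was 1 array, and no label says how many animals or clones stand behind it, so genotype and culture cannot be told apart within a stage. In bulk RNA, fewer cells of a type and less RNA per cell cannot be told apart either.

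In the mouse embryo, cells of the epiblast pass from a naive state through a formative state to a primed state, in which they can answer the signals of gastrulation. OTX2 and POU3F1 are homeodomain factors that direct OCT4 to new enhancers as naive cells leave that state. FOXD3 is a forkhead factor needed to maintain the epiblast, and it also acts in the neural crest. ZIC2 is a zinc finger factor that binds enhancers in pluripotent cells and in the neural plate. GBX2 is a homeodomain factor that is a target of LIF and STAT3 and supports naive self-renewal. LIN28A is an RNA-binding protein that blocks the maturation of the let-7 microRNAs, and it was among the first factors used to reprogram cells.

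The WT day 8 array stood apart from its neighbours in time. It was reused from an earlier series, as was the WT ESC array, and its labels name both 4 and 8 days. On this array 3 of 8 pluripotency markers were above the array median, and their median log2 signal was 5.49, below the 5.62 of WT day 4. The same median was 7.17 at flox/- day 4, 11.44 at WT day 11 and 11.92 at flox/- day 8. In MEF it was 4.84 to 5.05 with 0 of 8 markers above the array median, and in the pluripotent lines it was 11.92 to 11.96 with all 8 above. The 10 fibroblast markers had a median of 11.43 to 12.08 in MEF, 6.03 to 11.02 under DOX and 6.39 to 9.04 in the pluripotent lines, where WT iPSC was highest. The 6 macrophage markers also moved with the cell state, from 7.78 to 10.96 in MEF to 5.02 to 6.37 in the pluripotent lines. WT day 8 was unlike WT day 4 in both lists. Its fibroblast median was 7.12 against 11.02, and its macrophage median 5.025 against 9.007. The part that other cells had in the differences below was not tested. Mbd3 itself had a log2 signal of 8.995 to 9.67 on the WT arrays, 8.73 to 9.11 on the flox/- arrays, 8.15 in -/- MEF and 6.73 in -/- ESC. The array labelled -/- MEF thus kept an Mbd3 signal nearer to the flox/- arrays than to -/- ESC. Whether the probe set lies in the deleted part is not given in the sources used here, so this checks the label only in part.

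The promoter sequences of Otx2, Foxd3 and Gbx2 are shown first, because their content can be set beside the values that follow. RefSeq (GRCm38.p6) gave the 250 bases before a start site for 4 of the 6 members. Zic2 and Pou3f1 had no entry. Otx2 had 4 start sites, and the first is printed. The windows of its other starts, and that of Lin28a, lie wholly or in part within the annotated span of their gene and are not printed. The Otx2 window is chr14:48667645-48667894 (minus strand), the Foxd3 window chr4:99656049-99656298 (plus strand) and the Gbx2 window chr1:89931177-89931426 (minus strand). Capitals mark matches to the motifs searched on both strands: the TATA box TATAAA in Otx2, the E-box CACGTG in Foxd3 and Gbx2, and the GC box GGGCGG in Gbx2.
Otx2: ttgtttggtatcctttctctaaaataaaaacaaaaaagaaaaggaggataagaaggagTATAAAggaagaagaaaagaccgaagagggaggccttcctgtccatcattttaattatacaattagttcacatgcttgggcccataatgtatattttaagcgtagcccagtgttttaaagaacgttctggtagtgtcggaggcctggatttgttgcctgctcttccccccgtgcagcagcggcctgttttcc
Foxd3: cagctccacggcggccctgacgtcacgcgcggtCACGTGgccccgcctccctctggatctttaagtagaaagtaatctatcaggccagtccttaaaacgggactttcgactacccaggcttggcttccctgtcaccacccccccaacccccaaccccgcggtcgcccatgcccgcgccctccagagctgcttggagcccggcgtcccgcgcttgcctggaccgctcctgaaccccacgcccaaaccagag
Gbx2: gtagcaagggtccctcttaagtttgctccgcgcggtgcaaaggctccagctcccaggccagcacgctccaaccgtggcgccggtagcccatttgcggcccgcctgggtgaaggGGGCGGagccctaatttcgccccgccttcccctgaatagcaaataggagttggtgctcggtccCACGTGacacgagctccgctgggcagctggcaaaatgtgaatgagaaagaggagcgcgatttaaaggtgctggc

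The E-box was found at position -217 from the start of Foxd3 and at position -74 from the start of Gbx2. It is in 6.02% of the 32851 promoters of the same table. The GC box lies at -137 of Gbx2 and is in 32.7% of promoters. The TATA box letters lie at -192 of the first Otx2 start and are in 12.4% of promoters. The Gbx2 window holds 18 CpG and the Foxd3 window 21, against a median of 6 over all promoters, while the first Otx2 window holds 6. The Lin28a window (chr4:134018817-134019066, minus strand) holds 7 CpG. It has 1 match to the Sox core in its second form ACAATG, at -96, and 10.7% of promoters have one. At the third Otx2 start (chr14:48665110-48665359, minus strand) the OTX site TAATCC was found at -211, and 6.25% of promoters hold it. The second Otx2 window has a CCAAT box, as do 33.8% of promoters. The octamer ATGCAAAT, the Sox core ACAAAG, the STAT3 site TTCCNGGAA and the ZIC site CAGCAGG were in none of the 7 member windows, and they are in 1.6%, 16.5%, 0.913% and 8.44% of promoters. No motif was thus shared by all 4 members with a window, and a match here is a match of letters only.

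**Figure D1:**
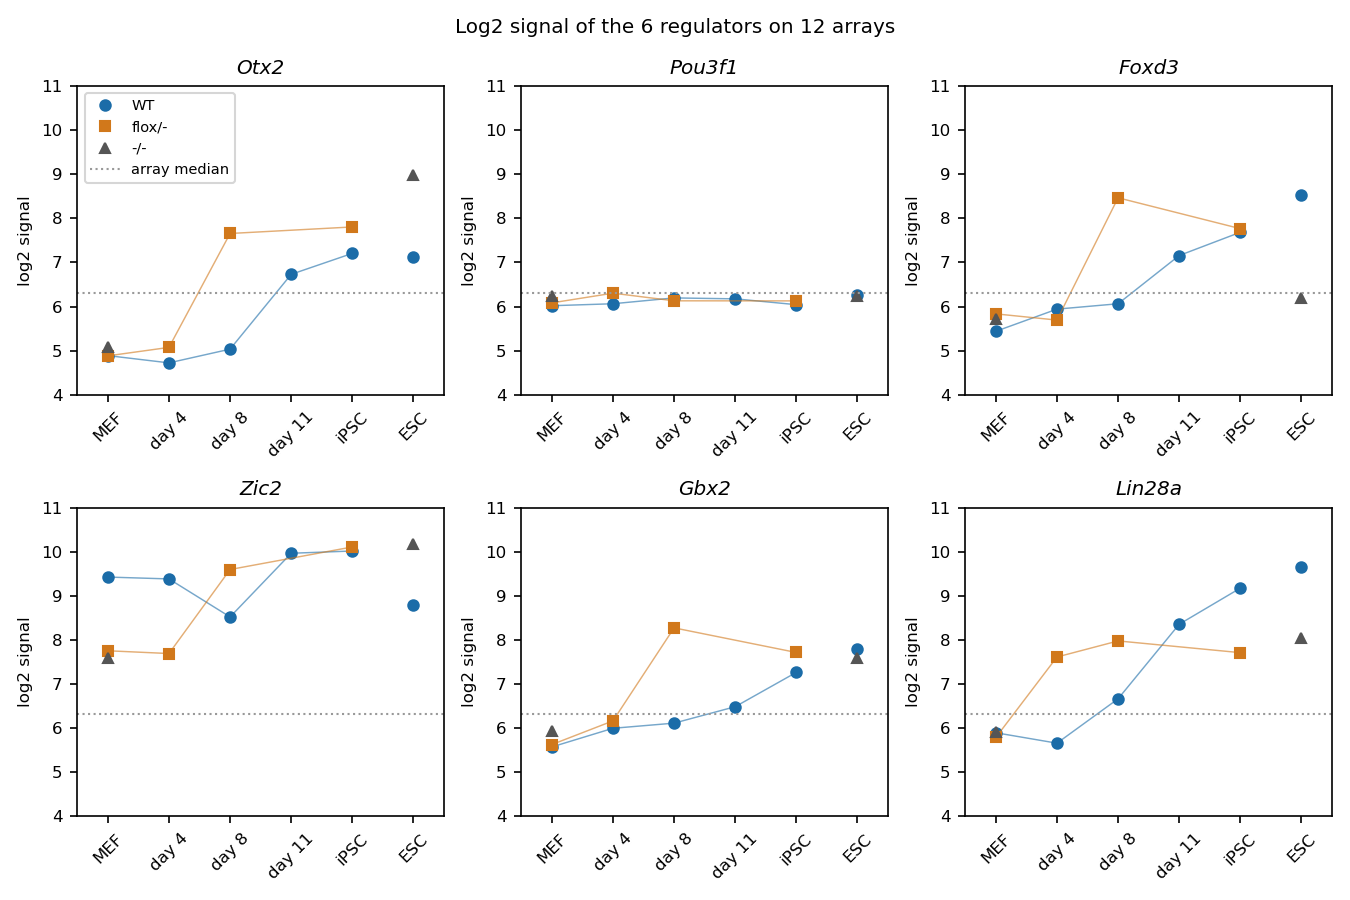
Log2 signal of the 6 members (y axis) on the 12 arrays by stage (x axis), with WT as circles, flox/- as squares and -/- as triangles; each point is 1 array, lines join stages of a genotype and the dotted line is the array median. Otx2, Foxd3, Gbx2 and Lin28a start below the array median in all 3 MEF arrays and Zic2 above it, while Pou3f1 stays between 6.02 and 6.30.

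Otx2 had the widest range of the 6 genes, 4.26 log2 units over the 12 arrays, and 95.9% of all genes with a probe set had a smaller one. Among the MEF, its log2 signal was 4.89 for WT, 4.88 for flox/- and 5.09 for -/- cells. Under DOX it was 4.73 at WT day 4, 5.08 at flox/- day 4, 5.04 at WT day 8, 6.73 at WT day 11 and 7.66 at flox/- day 8. In the pluripotent lines it was 7.13 in WT ESC, 7.21 in WT iPSC, 7.81 in flox/- iPSC and 8.99 in -/- ESC. The 3 MEF arrays, both day 4 arrays and WT day 8 are thus alike and low, close to the lower quartile of the arrays (4.68), and all pluripotent arrays lie above all MEF arrays. Otx2 rose 7.10-fold from MEF to the pluripotent lines (log2 difference 2.83 ± 0.43, SE; 4 against 3 arrays; 95% interval 1.83 to 3.83; adjusted p = 0.00103, limma). In MEF, Foxd3, Gbx2 and Lin28a were below the array median like Otx2, so the background of the arrays limits the folds of all 4.

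Pou3f1, the partner of Otx2 in the formative programme, was the member that stayed dim. Its log2 signal was 6.02, 6.09 and 6.25 in WT, flox/- and -/- MEF. Under DOX it was 6.07 and 6.30 at day 4, 6.20 and 6.13 at day 8 (WT and flox/- in each case) and 6.18 at WT day 11. It was 6.04 in WT iPSC, 6.13 in flox/- iPSC, 6.26 in WT ESC and 6.24 in -/- ESC. The range of 0.284 was smaller than that of most genes, as only 9.34% of genes had a smaller one, and 0 of 12 arrays were above their median of 6.31. With no filter on dim genes the difference between pluripotent lines and MEF was 0.05 (95% interval -0.164 to 0.265; adjusted p = 0.714, limma). A probe set at this level may measure background, so these arrays do not give the level of the Pou3f1 mRNA.

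Foxd3 spanned 3.09 log2 units, from a low of 5.44 in WT MEF to 8.53 in WT ESC. The other MEF arrays had 5.84 (flox/-) and 5.71 (-/-). Under DOX the log2 signal was 5.94 at WT day 4, 5.695 at flox/- day 4, 6.06 at WT day 8, 7.16 at WT day 11 and 8.47 at flox/- day 8. It was 7.69 in WT iPSC, 7.77 in flox/- iPSC and 6.19 in -/- ESC. The -/- ESC array is therefore the lowest of the pluripotent arrays and lies within the range of the DOX arrays, while it is still above all MEF arrays. Its Foxd3 signal is below the array median of 6.31, as on both day 4 arrays and WT day 8. Background therefore limits what these values show. Foxd3 rose 3.68-fold from MEF to the pluripotent lines (log2 difference 1.88 ± 0.49, SE; adjusted p = 0.0123, limma).

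Zic2 was above the array median on 12 of 12 arrays, and it is the only member for which any MEF array was. Among the MEF, its log2 signal was 9.42 for WT but 7.75 for flox/- and 7.59 for -/- cells. Under DOX it was 9.38 at WT day 4, 7.69 at flox/- day 4, 8.52 at WT day 8, 9.59 at flox/- day 8 and 9.96 at WT day 11. In the pluripotent lines it was 10.01 in WT iPSC, 10.11 in flox/- iPSC, 8.78 in WT ESC and 10.17 in -/- ESC. The groups overlap, since WT MEF is above WT ESC. Zic2 rose 2.85-fold from MEF to the pluripotent lines (log2 difference 1.51 ± 0.52, SE; adjusted p = 0.0377, limma). That call was lost without any one of WT iPSC, flox/- iPSC, -/- ESC, flox/- MEF or -/- MEF (adjusted p 0.0809, 0.0845, 0.0819, 0.127 and 0.125), and with no filter on dim genes it was 0.0596. With genotype as a block it was 0.0857.

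Gbx2 had the smallest spread within the pluripotent group of the 5 members kept. Its log2 signal was 7.26 in WT iPSC, 7.71 in flox/- iPSC, 7.80 in WT ESC and 7.58 in -/- ESC, a mean of 7.59 ± 0.235 (SD, n = 4). In MEF it was 5.57 (WT), 5.63 (flox/-) and 5.93 (-/-), a mean of 5.71 ± 0.192 (SD, n = 3). Under DOX it was 5.996 at WT day 4, 6.16 at flox/- day 4, 6.11 at WT day 8 and 6.49 at WT day 11, but 8.27 at flox/- day 8, the highest value of all 12 arrays. MEF and pluripotent arrays do not overlap, and 4 of the 5 DOX arrays lie between them. Gbx2 rose 3.68-fold from MEF to the pluripotent lines (log2 difference 1.88 ± 0.16, SE; adjusted p = 9.43e-05, limma).

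Lin28a was flat in fibroblasts and spread out later, with a range of 3.98 that exceeds that of 94.9% of genes. The MEF values on the log2 scale were 5.90 for WT, 5.79 for flox/- and 5.91 for -/- cells. Under DOX it was 5.66 at WT day 4 but 7.61 at flox/- day 4, then 6.66 at WT day 8, 7.98 at flox/- day 8 and 8.35 at WT day 11. It was 9.64 in WT ESC and 9.17 in WT iPSC, against 8.05 in -/- ESC and 7.71 in flox/- iPSC. Both WT pluripotent arrays are thus above both arrays of Mbd3-mutated pluripotent cells. Lin28a rose 6.86-fold from MEF to the pluripotent lines (log2 difference 2.78 ± 0.45, SE; adjusted p = 0.00145, limma).

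All 5 members kept passed the test as higher in the pluripotent lines than in MEF. That comparison called 60.0% of all 13044 genes, 30.1% as higher and 29.9% as lower, and 64.5% had an unadjusted p under 0.05. Otx2, Foxd3, Gbx2 and Lin28a were above the array median only on DOX or pluripotent arrays, so the filter favoured a rise in them and nothing is read from the count. With no filter on dim genes, their adjusted p (limma) was 0.002, 0.021, 0.000142 and 0.00276 in that order. Without the reused WT ESC array all 5 still passed, with differences of 1.55 (Foxd3) to 3.05 (Otx2). The median difference over all 6 members was 1.88, against 0.0282 over all genes kept. Of 24 genes listed for naive pluripotency, 23 rose and 0 fell on the same arrays, with a median of 4.88. The list also holds general pluripotency factors such as Pou5f1 and Sox2. Most of its genes were below the array median in MEF, so the filter favoured a rise there too. Dppa5a rose by 8.12, Nanog by 7.01, Sox2 by 6.72 and Utf1 by 6.72 on the log2 scale.

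**Figure D2:**
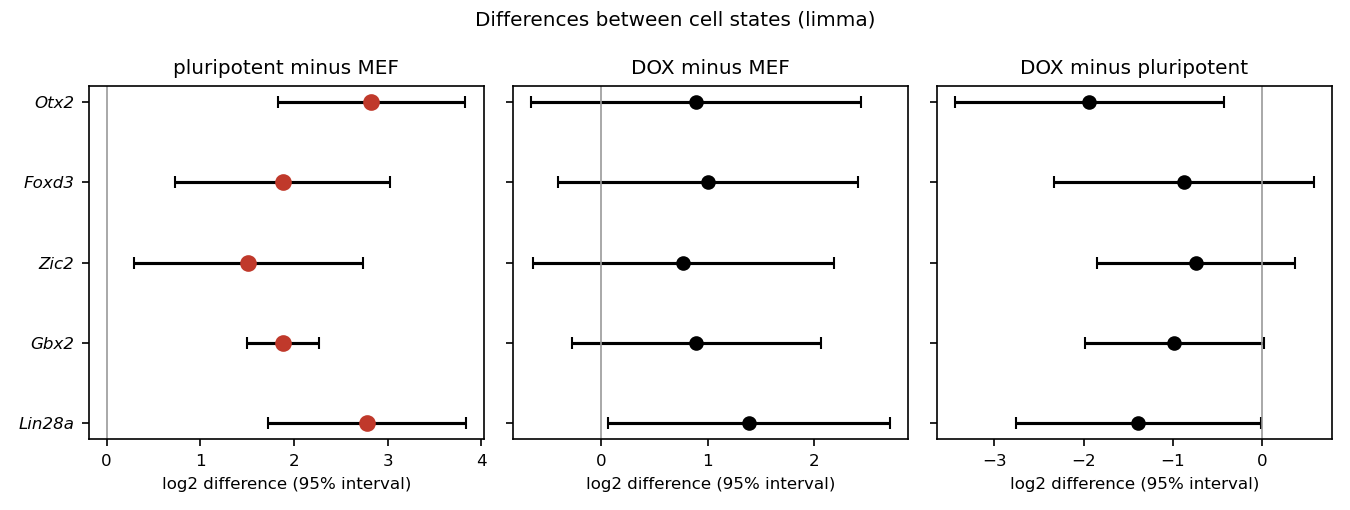
Log2 differences (x axis) of the 5 members kept (rows) between cell states, as the estimate with its 95% interval from limma; larger red points mark an adjusted p under 0.05. All 5 intervals lie above 0 for pluripotent lines minus MEF, while no member passed the test in the comparisons with the DOX group.

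Between the 5 DOX arrays, Otx2, Foxd3, Gbx2 and Lin28a had a larger spread (SD 0.949 to 1.28) than in MEF or in the pluripotent lines, whereas Zic2 was most spread in MEF (SD 1.01). None of the 5 passed the test against MEF, where 13.6% of genes were called (5.88% as higher), and 34.8% had an unadjusted p under 0.05. The differences were 0.89 for Otx2 (adjusted p = 0.371), 1.004 for Foxd3 (0.271), 0.77 for Zic2 (0.391), 0.90 for Gbx2 (0.242) and 1.39 for Lin28a (0.128), all by limma. The median over the 6 members was 0.893, against 0.0603 over all genes. Without WT day 4, Lin28a was 1.79 higher under DOX and passed the test (adjusted p = 0.024, limma). Leaving out WT day 8, the array with conflicting labels, gave differences of 0.90 to 1.54 and no call among the 5 members, with 3165 genes called in place of 1768. With genotype as a block 508 genes were called and again no member.

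Nor did any member pass against the pluripotent lines, where 1 gene, 0.00767% of those tested, was called and 15.7% had an unadjusted p under 0.05. Otx2 was lower by 1.94 under DOX (adjusted p = 0.273), Lin28a by 1.39 (0.313), Gbx2 by 0.98 (0.321), Foxd3 by 0.88 (0.48) and Zic2 by 0.74 (0.438) in the limma fit. The median over the 6 members was -0.93, against 0.0215 over all genes. Without WT day 8 the differences ran from -0.61 (Zic2) to -1.74 (Otx2), again with no call among the members. The outcome for Otx2 and Gbx2 rested on 1 array. Without flox/- day 8, the DOX array closest to the pluripotent lines in its pluripotency markers, Otx2 (log2 difference -2.39, adjusted p = 0.0339) and Gbx2 (-1.40, adjusted p = 0.00743) passed as lower under DOX by limma, and 1315 genes were called. The comparisons with the DOX group share arrays with each other and with that of the end states.

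The steps along reprogramming rest on 1 array on each side and have no test. From MEF to day 4, Lin28a was 1.82 higher on the log2 scale in flox/- cells, where 28.7% of genes were at least 2-fold apart, and 10.8% of genes were further apart than Lin28a. In WT cells Lin28a was 0.24 lower at day 4 than in MEF, in a step in which 12.4% of genes were 2-fold apart. No other member moved by 2-fold at that step in either genotype. From day 4 to day 8 in flox/- cells, 19.2% of genes were 2-fold apart, 7.44% as higher. Foxd3 was 2.77 higher, Otx2 2.58, Gbx2 2.11 and Zic2 1.90, while Lin28a was 0.36 higher. In flox/- cells the main difference of Lin28a thus came between MEF and day 4, and that of the other 4 between days 4 and 8. In WT cells from day 4 to day 11, with 11.4% of genes 2-fold apart, Lin28a was 2.70 higher, Otx2 2.01 and Foxd3 1.22, while Zic2 (0.58) and Gbx2 (0.49) were less than 2-fold higher.

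From the last DOX array to the iPSC line the differences were smaller. In flox/- cells 2.68% of genes were 2-fold apart and no member was, although Foxd3 was 0.70 and Gbx2 0.56 lower in iPSC than at day 8. In WT cells 9.12% of genes were 2-fold apart between day 11 and iPSC, again with no member among them. The differences there were 0.82 for Lin28a, 0.78 for Gbx2, 0.53 for Foxd3, 0.47 for Otx2 and 0.05 for Zic2. When flox/- day 8 was set against WT day 11, 14.4% of genes were 2-fold apart. Gbx2 was 1.79 higher and Foxd3 1.31 higher in the flox/- cells at that point, Otx2 was 0.93 higher, and Zic2 and Lin28a were 0.37 and 0.38 below WT. The days differ in this pair.

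Between flox/- and WT, over the 4 stages that both have and with stage as a block, 0 of the 5 members and 0% of all genes were called by limma, and 6.53% of genes had an unadjusted p under 0.05. The log2 difference was 0.89 ± 0.47 (SE) for Otx2 (adjusted p = 0.693), 0.71 for Gbx2 (0.693), 0.66 for Foxd3 (0.706), 0.42 for Lin28a (0.812) and -0.55 for Zic2 (0.74). Without WT day 8, that of Otx2 was 0.31, of Gbx2 0.22, of Foxd3 0.08 and of Lin28a 0.13, while that of Zic2 was -1.09. The sizes for Otx2, Gbx2 and Foxd3 over the 4 stages therefore rested on day 8. There Otx2 was 2.62, Foxd3 2.40 and Gbx2 2.16 higher in flox/- cells, and 31.8% of genes were 2-fold apart. Zic2 was 1.075 higher in flox/- cells at day 8, against its direction over the stages. The WT array of this pair is the reused one whose labels name both 4 and 8 days. Genotype, series and day therefore cannot be told apart in it. At that day the median of the pluripotency markers was 11.92 in flox/- and 5.49 in WT cells.

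Zic2 and Lin28a differed between the genotypes at other stages. In MEF, Zic2 was 1.67 lower in flox/- than in WT and 1.83 lower in -/- than in WT, where 4.12% and 7.01% of genes were at least 2-fold apart. At day 4 it was 1.69 lower in flox/- cells (12.9% of genes 2-fold apart), and in iPSC it differed by 0.09. Lin28a was 1.95 higher in flox/- cells at day 4 and 1.46 lower in flox/- than in WT iPSC, a pair in which 5.08% of genes were 2-fold apart. Its direction between the genotypes thus changed with the stage, and without either day 4 array its difference over stages was -0.09. The 11 neural crest genes, of a lineage in which Foxd3 and Zic2 are active, had a median of 6.14 in WT MEF, 7.43 in flox/- MEF and 7.52 in -/- MEF. For the 11 neural progenitor genes the median was 6.20, 5.88 and 6.47 in WT, flox/- and -/- MEF. That median lies near the array median, and single genes of the list went either way. In the same order, Nes had 9.32, 7.37 and 6.69 and Fabp7 8.65, 7.28 and 7.71, while En1 had 6.42, 7.52 and 8.17. The 6 macrophage markers had a median of 10.96, 9.85 and 7.78 in WT, flox/- and -/- MEF, and the 10 fibroblast markers one of 11.43, 12.08 and 11.98. The part of these cells in the Zic2 difference was not tested.

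The cells labelled -/- are 1 MEF and 1 ESC array. Over the 7 arrays without DOX, with cell state and genotype as terms, 0 of the 5 members and 0% of genes were called by limma in the comparison with WT, and 9.53% had an unadjusted p under 0.05. Otx2 had a log2 difference of 1.12 ± 0.36 (SE; unadjusted p = 0.024, adjusted p = 0.518, limma). The others were -0.97 for Foxd3 (0.588), -0.82 for Lin28a (0.563), -0.28 for Zic2 (0.914) and 0.19 for Gbx2 (0.785), with the adjusted p in parentheses. Some signs rested on 1 array: Foxd3 differed by 0.06 without -/- ESC, and Zic2 by 0.71 without WT MEF and by 0.43 without -/- MEF. Between the ESC arrays alone 9.94% of genes were 2-fold apart. Foxd3 was 2.34 lower, Lin28a 1.59 lower, Otx2 1.86 higher and Zic2 1.39 higher in -/- than in WT ESC. The Foxd3 signal of -/- ESC was below the array median, so background limits the size of that difference. The WT ESC array comes from the earlier series, so genotype and series cannot be told apart there. Without it, the fit over the arrays with no DOX gave 0.99 for Otx2, -0.61 for Foxd3, -0.84 for Zic2, 0.34 for Gbx2 and -0.56 for Lin28a, with no call. Set against the other WT pluripotent array, WT iPSC, it had 1.23 less Zic2 and 0.84 more Foxd3, in a pair in which 4.24% of genes were 2-fold apart.

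**Figure D3:**
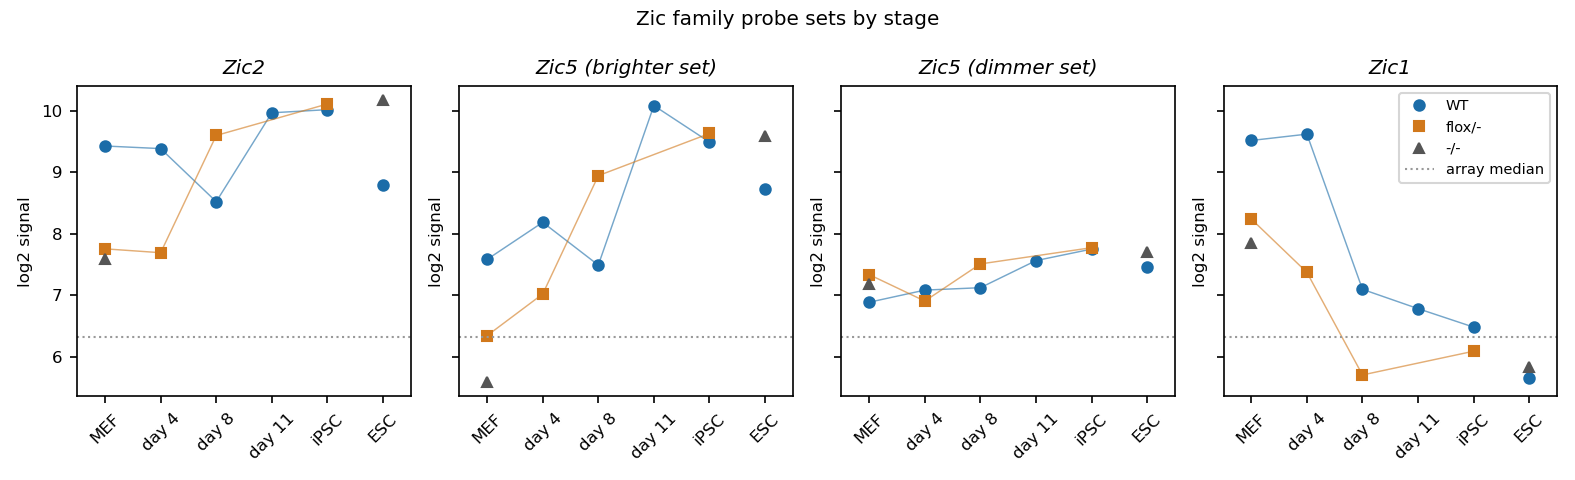
Log2 signal (y axis) by stage (x axis) of Zic2, of both probe sets of its chromosomal neighbour Zic5 and of Zic1, with WT as circles, flox/- as squares, -/- as triangles, 1 array per point and the array median dotted. Zic2 and the brighter Zic5 set are both at 8.73 or above in all pluripotent lines, while Zic1 is at 6.48 or below there and highest in WT MEF and WT day 4.

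The relatives of the members did not move as a block. Of 13 paralogs with a probe set 6 were kept, and 2 rose and 3 fell from MEF to the pluripotent lines, with a median of -0.54. Of all genes, 30.1% rose and 29.9% fell. Zic5 lies 9725 bases from Zic2 on chromosome 14, and its brighter probe set rose by 2.85 (7.23-fold, adjusted p = 0.00134, limma). Its dimmer probe set differed by 0.54, so the probe sets of Zic5 disagree in size. Both are assigned to Zic5 by the annotation alone, and where each lies in the genome was not checked. Over the 12 arrays the brighter set had a Pearson correlation of 0.918 with Zic2, the highest of any other gene kept, and the dimmer set one of 0.642. Zic1, a family member active in mesenchyme and neural tissue, fell by 2.52 (adjusted p = 0.00123, limma). The log2 signal of Zic1 stood at 9.51, 8.24 and 7.85 in WT, flox/- and -/- MEF, so the genotypes stand in the same order as for Zic2 there. Foxd1, a forkhead factor of stromal cells, fell by 1.75 (adjusted p = 0.0201, limma), from 8.98, 7.75 and 6.67 in WT, flox/- and -/- MEF. Pou3f4 fell by 0.75. Otx1, Crx, Foxd4, Zic4, Pou3f2, Pou3f3 and Gbx1 did not pass the filter.

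**Figure D4:**
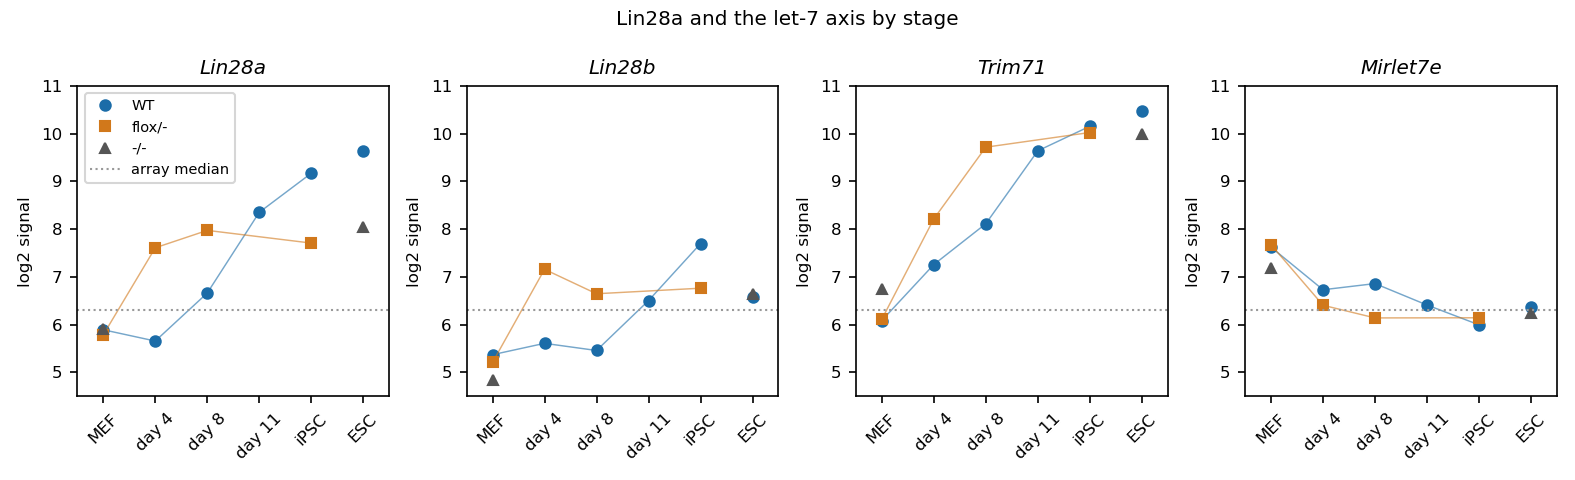
Log2 signal (y axis) by stage (x axis) of Lin28a, its paralog Lin28b, the let-7 target Trim71 and the let-7e precursor gene Mirlet7e, with WT as circles, flox/- as squares, -/- as triangles, 1 array per point and the array median dotted. Lin28a, Lin28b and Trim71 are lowest in MEF or WT day 4, while Mirlet7e is highest in the 3 MEF arrays.

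Genes that act with LIN28A were followed as a list of its let-7 axis, beside 30.1% of all genes called higher and 29.9% called lower. Of 16 kept, 10 rose and 3 fell from MEF to the pluripotent lines, with a median of 0.57. Lin28b, the paralog of Lin28a, rose by 1.78 (3.43-fold, adjusted p = 0.00141, limma). Lin28b was below the array median in every MEF array, so the filter favoured a rise in it. Like Lin28a it was higher at day 4 in flox/- than in WT cells, with 7.16 against 5.61. Trim71, a ubiquitin ligase of stem cells whose mRNA is a classical let-7 target, rose by 3.85 (14.4-fold, adjusted p = 1.64e-05, limma). Igf2bp1, an RNA-binding protein of embryonic tissue and also a let-7 target, rose by 2.22. Hmga2, a chromatin protein and let-7 target that is abundant in embryonic fibroblasts, fell by 1.63 (adjusted p = 0.000531, limma). Drosha, the nuclease that releases the hairpins of microRNA, rose by 1.499. Against MEF, 3 genes of this list rose under DOX and 1 fell (5.88% of all genes rose), and Trim71 was among the former (4.84-fold, adjusted p = 0.0401, limma).

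LIN28A acts on let-7 precursors, and 9 genes of the family had a probe set, of which 3 were kept. These genes were chosen after the data had been seen. The mature forms of the 3 kept and of let-7c share the seed, bases 2 to 8, which RefSeq gives as below with the seed in capitals.
let-7e-5p: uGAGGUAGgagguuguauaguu
let-7i-5p: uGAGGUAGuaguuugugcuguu
let-7d-5p: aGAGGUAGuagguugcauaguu
let-7c-5p: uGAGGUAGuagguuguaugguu

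The signal of Mirlet7e was 7.62, 7.68 and 7.18 in WT, flox/- and -/- MEF, and 5.998 to 6.37 in the 4 pluripotent arrays, with no overlap. It fell by 1.31 (2.47-fold, adjusted p = 0.000385, limma) from MEF to the pluripotent lines, and by 0.98 under DOX (adjusted p = 0.0269, limma). Mirlet7i fell by 0.43 (adjusted p = 0.0339, limma), and Mirlet7d had a difference of -0.41 (adjusted p = 0.077, limma). Mirlet7c-1 was 1.06 lower but did not pass the filter. The labels name a kit primed on poly(A) tails, while the probe sets are those of a whole-transcript array. Which RNA form these probe sets read is therefore not settled here, and mature let-7 levels are not given by them.

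Other genes of the formative and primed programme were called in both directions, as were 30.1% (higher) and 29.9% (lower) of all genes. Of 20 formative genes kept, 8 rose and 3 fell from MEF to the pluripotent lines, with a median of 0.33. Among those that rose, Tdgf1, Nodal, Dnmt3b, Tcf15 and Grhl2 were below the array median in every MEF array. The filter thus favoured a rise in them, and nothing is read from the count. Tdgf1, the co-receptor of Nodal, rose by 7.78, Nodal by 4.09 and the ERK-responsive factor Etv5 by 2.51 on the log2 scale. The DNA methyltransferase Dnmt3b rose by 1.82 (adjusted p = 0.00535, limma), with 8.22 in WT iPSC, 8.45 in WT ESC, 7.48 in flox/- iPSC and 6.70 in -/- ESC. Fgf5, the growth factor most used as a mark of the formative and primed state, fell by 0.57 (adjusted p = 0.00993, limma). Its log2 signal was between 5.45 and 6.49 on all 12 arrays. Only in -/- MEF (6.49) was Fgf5 above the array median, so the filter favoured a fall and background limits its difference. Of 11 primed and gastrulation genes kept, 2 rose and 3 fell, with a median of 0.08. The T-box factor Eomes rose by 2.92, while Sfrp2, Cdh2 and Fst, which fibroblasts express too, fell by 3.13, 3.07 and 2.33. Eomes too was below the array median in every MEF array, so the filter favoured its rise. Foxa2, Mixl1, Evx1 and Mesp1 were among those not kept. Several members of these lists are therefore at or below the array median in every state.

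Signalling pathways that act on the members were measured too, and their counts again stand beside 30.1% of all genes higher and 29.9% lower. Of 13 genes of the LIF and STAT3 response, upstream of Gbx2, 3 rose and 7 fell from MEF to the pluripotent lines, with a median of -0.61. The kinases Jak2 and Jak1 fell by 2.77 and 1.64 and the receptor Il6st by 1.93, whereas the STAT3 target Pim1 rose by 1.39. Of 16 genes of the FGF and ERK pathway, which drives the exit from the naive state, 4 rose and 6 fell, with a median of -0.35. The receptor Fgfr2 fell by 3.47, the ERK-responsive factor Egr1 by 2.45 and the ERK feedback gene Dusp4 by 1.78. Etv5 and Etv4, which respond to ERK too, rose by 2.51 and 1.14. Of 9 neural crest genes kept, 1 rose and 4 fell, and of 7 neural progenitor genes kept, 2 rose and 2 fell. The medians of these marker lists in the pluripotent lines, 6.09 to 6.50 and 5.75 to 6.40, lie around the array median of 6.31.

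The genes whose profile was most like each member were found by Pearson correlation over the 12 arrays, which share genotypes and cell states. They were Rimklb, Zfp518a and Drc3 for Otx2 (0.976, 0.972 and 0.969). For Foxd3 they were Patl1, Stmn3 and Tmem131 (0.974, 0.971 and 0.97), and for Gbx2 Zfp446, Rbm48 and Cdk12 (0.986, 0.986 and 0.981). For Lin28a they were Syngr1, Dhx16 and Cebpzos (0.955, 0.952 and 0.951). For Zic2 they were Zic5, Zfp825 and Zfp979 (0.918, 0.887 and 0.868), and for the dim Pou3f1 Zdhhc12, Unc45bos and Timm17a (0.877, 0.858 and 0.845). Among the members themselves, Otx2 and Gbx2 had the highest correlation (0.897), followed by Foxd3 and Gbx2 (0.871). Zic2 had its highest value with Otx2 (0.704) and lower ones with Gbx2 (0.568), Foxd3 (0.48) and Lin28a (0.444).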

How the data were processed

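RNA extracted with TRIZOL was labelled with biotin and scanned by the authors, per the labels' protocols. The deposited values are log2 signals of 35512 probe sets on 12 arrays, from 3.11 to 13.99, and the summary and normalization by the authors are not given in the sources used here. Per the labels, the kit was primed on poly(A) tails, whereas the annotation is of a whole-transcript array. Arrays have no sequencing depth, and their number limits the precision.

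GEO's platform annotation named 23410 probe sets. The 21789 with 1 symbol were used, the 1621 with several symbols and the 12102 not listed were left out. Where a gene had more than 1 probe set (999 genes), the one with the highest mean stood for it. Array medians differed by 0.122, more than the limit of 0.1, so values were quantile normalized. The filter on dim genes is given with the results. Differences were fitted with limma 3.58.1 in R 4.3.3 (lmFit and eBayes), with Benjamini-Hochberg adjustment over the 13044 genes kept and calls at an adjusted p under 0.05. Arrays of 1 cell state stood as replicates whatever their genotype or day, so p-values measure the spread between these arrays. The fits between cell states held only the arrays of the states compared. Single arrays were compared by log2 differences with no test. The code was tested on simulated data.

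The members, gene lists and motifs were chosen with earlier results of these data known. All 6 members are named. Of each list, up to 4 called genes with the largest differences between pluripotent lines and MEF are named, and others only where their role bears on a member. Alternatives were the values as deposited, median centring, no filter, a filter on at least 3 arrays, the mean of the probe sets of a gene, eBayes with trend and robust, all 12 arrays in one fit, and leaving out each array or both reused arrays. Genotype as a block was added after seeing the data. Promoters and microRNA came from RefSeq tables of GRCm38.p6. Protein sequences were not used here.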

Additional observations from a re-analysis of the deposited data

Results flagged for a closer look

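Within the pluripotent arrays, Zic2 in WT ESC had a log2 signal of 8.78, while the nearest of the other 3 arrays was at 10.01, and this gap was 0.889 of the whole range of the group. Within the DOX arrays, Gbx2 at flox/- day 8 had a log2 signal of 8.27, while the nearest of the other 4 was at 6.49, a gap of 0.785 of the range. Both came from 12 groups screened. The limit used is one that chance passes in about 1 in 20 groups of like arrays. The groups here mix stages and genotypes, so that rate need not hold for them.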

How the results depend on the processing

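Of 400 member values under alternative settings, 384 kept their direction and their side of the threshold. Some of these settings could not change a difference. Each member has a single probe set, so the mean of the probe sets gave the same difference. In flox/- against WT, leaving out either array of a stage gave the same fit. The count is therefore not a measure of how firm the results are. Zic2 in pluripotent lines against MEF had an adjusted p (limma) of 0.0596 with no filter on dim genes and of 0.0558 with all 12 arrays in one fit. With genotype as a block, chosen after seeing the data, it was 0.0857. Leaving out an array, the log2 difference ran from -0.0857 (either day 4 array) to 1.05 (WT iPSC) for Lin28a in flox/- against WT, from -1.81 (-/- MEF) to 0.0579 (-/- ESC) for Foxd3 in -/- against WT and from -1.15 (-/- ESC) to 0.71 (WT MEF), with 0.43 for -/- MEF, for Zic2 in the latter. The cause of these changes was not tested.

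Counts of genes called also moved. For DOX against MEF (1768), 3165 genes were called without the reused arrays, 3561 with all 12 arrays in one fit, 508 with genotype as a block and 150 to 3165 when an array was left out (150 without flox/- MEF, 402 without -/- MEF, 414 without WT MEF, 659 without WT day 11, 688 without flox/- day 4 and 3165 without WT day 8). For DOX against the pluripotent lines (1), 0 were called by eBayes with trend and robust (2069 at an unadjusted p under 0.05), 0 without the reused arrays (1407 unadjusted), 0 with genotype as a block (1794 unadjusted), 19 with all 12 arrays in one fit and 0 to 1315 when an array was left out, the highest without flox/- day 8. For -/- against WT (0), 0 to 2 were called when an array was left out (2 without flox/- MEF or flox/- iPSC), and for pluripotent lines against MEF (7827), 6449 to 7762. For flox/- against WT the count was 0 in every setting. No label gives replicate numbers or shared cultures that pair arrays. Pou3f1 in every state, and Otx2, Foxd3, Gbx2 and Lin28a in MEF, lie below the array median, where the background limits what the arrays can show. The same holds for Otx2, Foxd3 and Gbx2 on both day 4 arrays and WT day 8. It also holds for Lin28a at WT day 4 and for Foxd3 in -/- ESC.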
